A study of Mus musculus with 12 samples.

Results

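The p53 pathway and its target genes were followed in mouse melanoma cells edited in the genes of 2 RNA-binding proteins, MBNL1 and MBNL2. The set holds 36 genes chosen by symbol as known p53 regulators or targets, of 23022 genes listed, and all 36 were found. B16-F10 is a melanoma line from a C57BL/6 mouse. A B16-F10 clone expressing Cas9 had been transduced with paired guide RNAs, either a non-targeting control (NTC, written no-template control in the labels) or guides against *Mbnl1* and *Mbnl2* (double knockout, DKO). Each genotype was left untreated or treated with interferon gamma (IFNγ), which gave 4 groups of 3 libraries and 12 libraries in all. The dose was 1 ng/mL for 24 h, which the labels do not give. All groups carried Cas9, a guide vector and its drug selection. The edited cells were polyclonal populations that still held some MBNL protein, and the control guides have no target. Loss of MBNL and the cutting of DNA by Cas9 therefore cannot be told apart in these comparisons. Whether the 3 libraries of a group came from separate transductions is not stated.

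p53, encoded by *Trp53*, is a transcription factor that is kept scarce by the ubiquitin ligase MDM2 and its relative MDM4. Damaged DNA and other stresses free p53 from this control, and it then switches on genes that arrest the cell cycle, kill the cell, repair DNA or adjust metabolism. Several targets, *Mdm2*, *Ppm1d* and *Ccng1* among them, feed back on p53. Much of this control acts on the p53 protein, which RNA levels do not measure. In skin, p53 also drives pigment responses. MBNL1 and MBNL2 act on RNA after it is made, for example on its splicing.

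Values were TPM of poly(A) RNA, a length-normalized measure of transcript abundance relative to the other transcripts of a library, from which read depth cannot be recovered. Over the listed genes they summed to between 844185 and 874612 TPM in NTC libraries and between 805782 and 827191 TPM in DKO libraries. Differences are DKO minus NTC on the scale of log2(TPM + 1), which understates the change of genes near 1 TPM, and adjusted p-values were taken over all 11663 tested genes. A gene was tested if it reached 1 TPM in at least 3 libraries, and 31 of the 36 members did. Each of these 31 reached 1 TPM in at least 3 NTC libraries, so none entered through DKO libraries alone. The median SD between replicates of tested members lay between 0.0561 and 0.101 (log2) in the 4 groups, beside 0.069 to 0.0934 for all tested genes. The labels number the replicates without saying whether they were separate cultures, so p-values measure the spread between these libraries, which may be technical. Where an alternative is named, the brackets give the difference under it and its adjusted p. Words of 50 bases shared with other annotated genes made up 17.8% of those of *Ddb2*, 11.2% for *Rps27l*, 10.7% for *Rrm2b*, 8.51% for *Bax*, 8.49% for *Cdkn1a*, 7.31% for *Mdm4* and less for the other members. In bulk RNA, a change in every cell and a change in the share of cells that express a gene cannot be told apart.

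RNA of the targeted genes was lower but present in DKO cells. For *Mbnl1* the libraries gave 56.8, 57 and 55.6 TPM in untreated NTC, 60.5, 63.9 and 63.3 TPM in treated NTC, 41.3, 41.1 and 44 TPM in untreated DKO and 44.9, 42.7 and 47.5 TPM in treated DKO libraries. Its difference was −0.41 (SE 0.0489, adjusted p = 2.54e-05) in untreated and −0.47 (SE 0.0489, adjusted p = 8.12e-06) in treated cells. *Mbnl2* ranged from 99.2 to 107 TPM in NTC and from 83.9 to 98 TPM in DKO libraries, with differences of −0.20 (adjusted p = 0.00937) and −0.23 (adjusted p = 0.00308). With libraries scaled to the same total these were −0.15 (adjusted p = 0.0262) and −0.15 (adjusted p = 0.0246). The DKO libraries of both genes all lay under the NTC libraries, in the direction of the labels. The 7 melanocyte markers were all expressed, led by *Tyrp1* (mean 5240 TPM), and summed to 16600 to 18600 TPM in NTC and 11100 to 12400 TPM in DKO libraries; their part in the p53 results was not tested. Markers of leukocytes, endothelium, epithelium and fibroblasts summed to at most 1.33, 0.914, 1.05 and 2.07 TPM per library, where fibroblast markers ranged from 0.765 to 1.45 TPM in NTC and from 1.7 to 2.07 TPM in DKO libraries. *Col1a1*, a fibroblast marker, ranged from 0.239 to 0.714 TPM in NTC and from 1.06 to 1.17 TPM in DKO libraries. The filter was met through DKO libraries alone, so no p is given for it, and the cause was not tested. *Col1a1* was singled out after its values were seen. *Ptprc*, *Cd3e*, *Cdh5*, *Epcam*, *Krt8* and *Dcn* were listed at 0 in all 12 libraries.

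Most tested members were higher in DKO cells at either treatment. In untreated cells 22 of 31 rose and 4 fell, whereas 17.0% of all tested genes rose and 19.4% fell. With IFNγ 22 rose and 2 fell, against 19.5% and 23.9% of all tested genes. The members were chosen with earlier results of these data known, so these counts describe the choice of genes too. The median difference of the members was 0.39 in untreated and 0.35 in treated cells, while that of all tested genes was −0.01 and −0.01. The latter turned to 0.04 and 0.07 with libraries scaled to the same total. With every library scaled to the same total, the share of higher genes among all called genes went from 46.7% to 60.7% in untreated and from 44.9% to 65.3% in treated cells.

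Rises at the 2 treatments were largely of shared members. A rise passed the threshold at both treatments for 20 members (12.5% of all tested genes) and a fall for 2, *Mdm4* and *Ddb2* (15.0% of all tested genes). No member passed in opposite directions. All 6 DKO libraries lay above all 6 NTC libraries for 20 tested members and below them for 2, where 12.4% and 14.7% of all tested genes did so. Mean TPM was at least 2-fold higher in DKO cells at both treatments for 5 members, *Cdkn1a*, *Ccng1*, *Phlda3*, *Trp53inp1* and *Tnfrsf10b*, and for 0.969% of all tested genes. By arm, apoptosis and arrest genes had the highest medians in untreated cells, 0.70 and 0.64, and repair genes the lowest, −0.01. In treated cells the order was 0.95 for apoptosis, 0.66 for metabolism, 0.60 for arrest, 0.16 for regulators and −0.06 for repair. The repair medians turned to 0.04 and 0.02 with libraries scaled to the same total. That scaling also turned the medians of all tested genes, to 0.04 and 0.07.

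**Figure D1:**
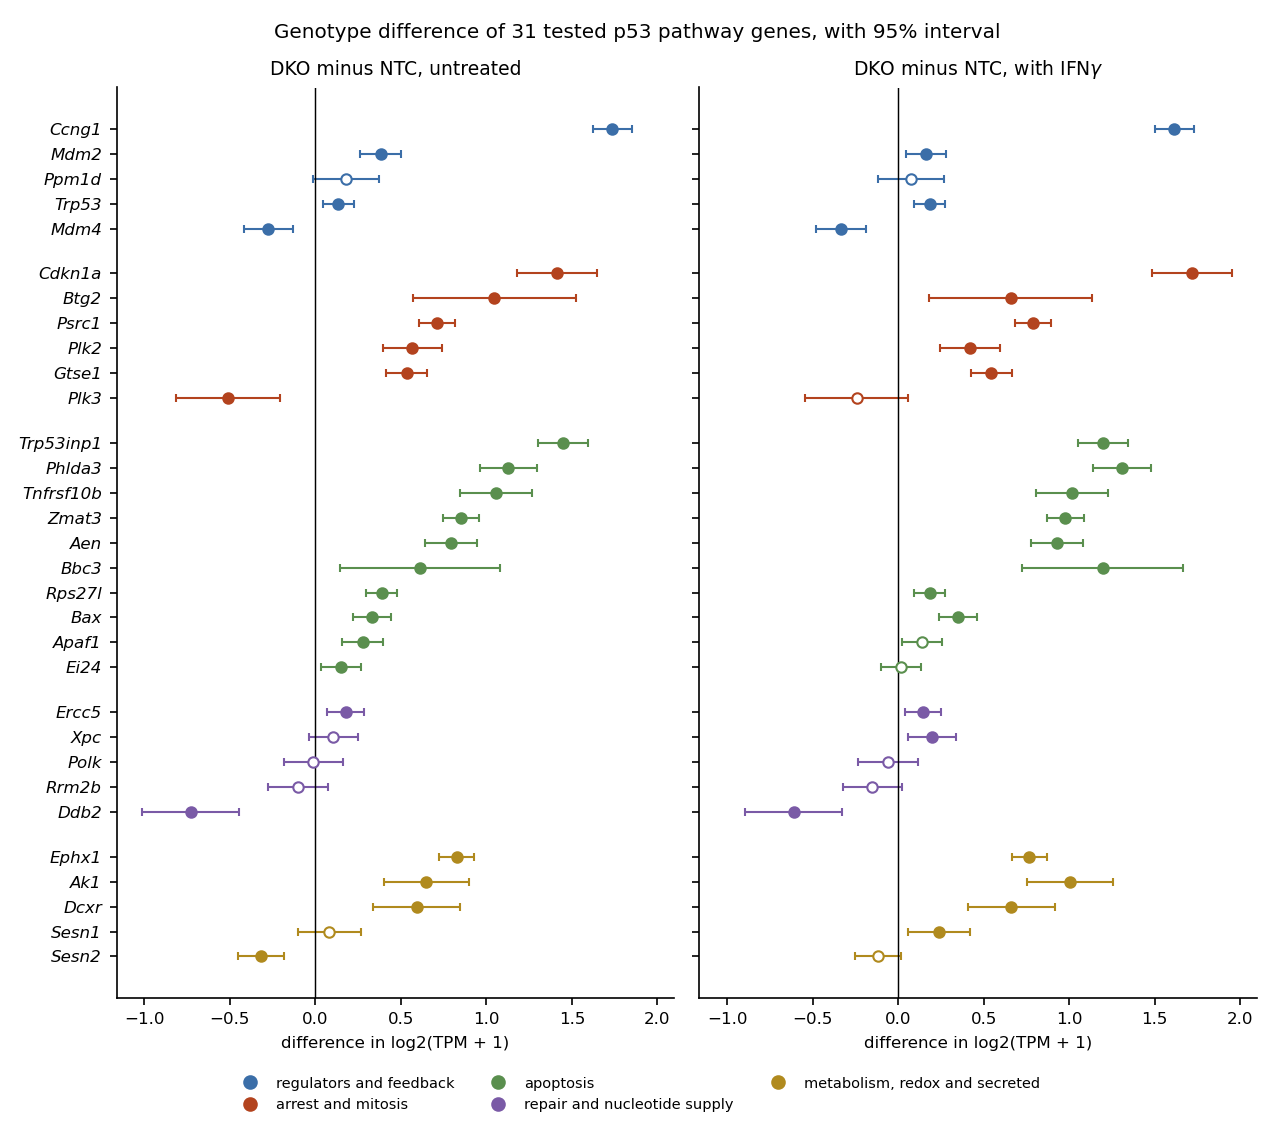
Differences between DKO and NTC libraries for the 31 tested members, in log2(TPM + 1), without IFNγ (left) and with it (right), grouped by arm. Points are limma estimates over 3 libraries a group, bars are 95% intervals, and filled points passed an adjusted p of 0.05. *Ccng1*, *Cdkn1a* and *Trp53inp1* lie farthest right in untreated cells, and *Ddb2* lies farthest left in both panels.

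Promoter sequence is shown for 3 members that rose at both treatments and hold a match to the p53 response element, so that the element can be seen beside the RNA values. RefSeq promoter windows (GRCm38.p6) of 250 bases before to 50 bases after the start were given for 28 of the 36 members. The element is a pair of 10-base copies of the p53 consensus, separated by 0 to 13 bases, and each copy was allowed 1 mismatch outside its core C and G. Because the consensus is a palindrome, a match on either strand is a match on the other. A match was found for 4 of 28 members, 14.3%, *Cdkn1a*, *Ccng1*, *Rps27l* and *Gtse1*, and for 3.09% of the 27025 genes with a window. With no mismatch allowed it was 1 member, *Cdkn1a*, and 0.074% of genes, and with no spacer 4 members and 0.244% of genes. The members are known p53 targets or regulators, so these shares describe the choice of genes too. No window was given for *Pmaip1*, *Trp53inp1*, *Tnfrsf10b*, *Zmat3*, *Perp*, *Ddb2*, *Xpc* and *Rrm2b*. The stretches, 5′ to 3′ along the gene with the matching copies in capitals, are at chr17:29090896-29090957 (plus strand, upstream of every annotated *Cdkn1a* transcript), chr11:40755452-40755491 (minus strand, upstream of every *Ccng1* transcript) and chr9:66946286-66946325 (plus strand, in an intron of the longer *Rps27l* transcripts).
Cdkn1a: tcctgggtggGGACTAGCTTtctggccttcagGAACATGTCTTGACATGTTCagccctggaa
Ccng1: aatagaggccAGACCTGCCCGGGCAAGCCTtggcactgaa
Rps27l: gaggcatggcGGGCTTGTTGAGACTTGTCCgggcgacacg

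The *Cdkn1a* stretch holds 2 overlapping matches. The pair with fewer mismatches has 0 of them and a spacer of 12 bases, and the other pair has 1 mismatch and no spacer. The last copy of the stretch ends 31 bases before the transcription start in its window, 1 of 2 windows given for the gene. In *Ccng1* the pair ends 175 bases before the start and in *Rps27l* 97 bases before it, each with 1 mismatch and no spacer. The matches of *Gtse1* reach past its start and are not printed. A match is a description of letters, and binding of p53 was not measured.

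Among the regulators and feedback genes, 3 of 5 rose and 1 fell in untreated cells, and likewise in treated cells. Beside each arm stand the shares of all tested genes, 17.0% higher and 19.4% lower in untreated and 19.5% and 23.9% in treated cells. *Trp53* itself, which encodes p53, stood at 117, 109 and 110.0 TPM in untreated NTC, 102, 98.1 and 104 TPM in treated NTC, 122, 122 and 125 TPM in untreated DKO and 119, 117 and 111 TPM in treated DKO libraries. At each treatment the DKO libraries were above the NTC libraries, but by little. The difference was 0.13 (SE 0.0427, adjusted p = 0.0257) in untreated and 0.18 (SE 0.0427, adjusted p = 0.00373) in treated cells. In untreated cells the *Trp53* difference no longer passed without NTC untreated replicate 2 (0.12, p 0.0911), NTC untreated replicate 3 (0.12, p 0.089), DKO untreated replicate 1 (0.14, p 0.0538), DKO untreated replicate 2 (0.14, p 0.0509) or DKO untreated replicate 3 (0.12, p 0.0879), with adjusted p from 0.00419 to 0.0911 over 22 alternatives.

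*Ccng1*, which encodes cyclin G1, a partner of protein phosphatase 2A that acts on MDM2 (ENSMUSG00000020326, chr11:40748552-40755311), was the member with the largest difference in untreated cells. It stood at 46.7, 48.7 and 48.3 TPM in untreated NTC, 46.9, 52.2 and 48.5 TPM in treated NTC, 159, 163 and 164 TPM in untreated DKO and 151, 143 and 163 TPM in treated DKO libraries. Every DKO library was near 3 times every NTC library, with ratios of mean TPM of 3.38 and 3.1. The differences were 1.73 (SE 0.0528, adjusted p = 1.49e-10) and 1.61 (SE 0.0528, adjusted p = 2.91e-10), which placed *Ccng1* at ranks 7 and 13 from the highest of 11663 genes.

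*Mdm2*, whose product marks p53 for degradation, rose by less. It stood at 41.5, 39.3 and 41.3 TPM in untreated NTC, 46.4, 42.6 and 46 TPM in treated NTC, 52.5, 52.9 and 54.5 TPM in untreated DKO and 49.7, 47.3 and 54.6 TPM in treated DKO libraries, and the DKO libraries were above the NTC libraries at each treatment. The difference was 0.38 (SE 0.0555, adjusted p = 0.00015) in untreated and 0.16 (SE 0.0555, adjusted p = 0.0303) in treated cells. With the same total the treated difference of *Mdm2* was 0.25 (adjusted p = 0.00205). In treated cells *Mdm2* no longer passed without NTC treated replicate 2 (0.12, p 0.122), DKO treated replicate 1 (0.17, p 0.0539) or DKO treated replicate 3 (0.11, p 0.115), or with only the 6 compared libraries fitted (0.16, p 0.0863), with adjusted p from 0.000865 to 0.122 over 22 alternatives. *Mdm4*, which encodes the p53-binding relative of MDM2, moved the other way, at 33.8, 31.3 and 31.9 TPM in untreated NTC, 32.7, 29 and 31 TPM in treated NTC, 24.9, 27.9 and 26.9 TPM in untreated DKO and 22.3, 24.5 and 26.2 TPM in treated DKO libraries. Its 6 DKO values all lay under its 6 NTC values, with differences of −0.28 (SE 0.0671, adjusted p = 0.00583) and −0.33 (SE 0.0671, adjusted p = 0.00137). *Ppm1d* encodes a phosphatase that dampens p53 signalling, and its libraries overlapped between genotypes, at 10.8, 12 and 9.46 TPM in untreated NTC, 13.2, 11.8 and 11.3 TPM in treated NTC, 11.6, 12.3 and 12.8 TPM in untreated DKO and 12.5, 11.8 and 14.2 TPM in treated DKO libraries. Neither difference passed, 0.18 (adjusted p = 0.143) and 0.08 (adjusted p = 0.525).

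In the arrest and mitosis arm 5 of 6 genes were higher at each treatment, beside 17.0% of all tested genes in untreated and 19.5% in treated cells. *Cdkn1a* encodes p21, the inhibitor of cyclin-dependent kinases through which p53 stops the cell cycle (ENSMUSG00000023067, chr17:29090976-29100727), and its upstream element is printed above. It stood at 72.8, 95.5 and 89.8 TPM in untreated NTC, 70.1, 61.1 and 59.1 TPM in treated NTC, 260.3, 218 and 211 TPM in untreated DKO and 211, 234 and 189 TPM in treated DKO libraries. The lowest DKO library, at 189 TPM, was far above the highest NTC library, at 95.5 TPM. Mean TPM was 2.67 times as high in untreated and 3.33 times as high in treated DKO cells, and the differences were 1.41 (SE 0.108, adjusted p = 6.47e-07) and 1.72 (SE 0.108, adjusted p = 1.03e-07).

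*Psrc1*, which encodes a protein of the mitotic spindle, stood at 58.3, 57.6 and 59.5 TPM in untreated NTC, 54.6, 50.5 and 54.2 TPM in treated NTC, 95.6, 94.8 and 98.7 TPM in untreated DKO and 92.5, 97.8 and 86.8 TPM in treated DKO libraries. *Gtse1*, a microtubule-binding protein that restrains p53 in G2 phase, stood at 33.3, 36.1 and 34.5 TPM in untreated NTC, 31.8, 33.4 and 33.9 TPM in treated NTC, 51.4, 49.8 and 50.4 TPM in untreated DKO and 47.8, 52.4 and 45.8 TPM in treated DKO libraries. Replicates of these genes were tight, and all 6 DKO libraries exceeded all 6 NTC libraries for each. *Psrc1* differed by 0.71 (SE 0.049, adjusted p = 2.46e-07) and 0.79 (SE 0.049, adjusted p = 9.96e-08), and *Gtse1* by 0.53 (SE 0.0545, adjusted p = 7.76e-06) and 0.55 (SE 0.0545, adjusted p = 5.54e-06).

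The polo-like kinases went in opposite directions. *Plk2* stood at 7.25, 6.44 and 6.98 TPM in untreated NTC, 8.3, 7.87 and 7.33 TPM in treated NTC, 10.7, 9.54 and 11.9 TPM in untreated DKO and 11.2, 10.4 and 10.8 TPM in treated DKO libraries, with every DKO library above every NTC library and differences of 0.57 (SE 0.0809, adjusted p = 0.000129) and 0.42 (SE 0.0809, adjusted p = 0.00109). *Plk3* stood at 4.67, 5.01 and 5.78 TPM in untreated NTC, 3.74, 5.39 and 5.21 TPM in treated NTC, 4.15, 2.59 and 3.33 TPM in untreated DKO and 3.93, 4.13 and 3.48 TPM in treated DKO libraries. Its untreated groups did not overlap, with DKO lower, and its treated groups did. The difference was −0.51 (SE 0.141, adjusted p = 0.0121) in untreated cells and did not pass in treated cells, −0.24 (SE 0.141, adjusted p = 0.179). The fall of *Plk3* in untreated cells no longer passed without NTC untreated replicate 3 (−0.44, p 0.0527) or DKO untreated replicate 2 (−0.38, p 0.0581), with adjusted p from 0.00483 to 0.0581 over 21 alternatives. Its treated difference did pass without NTC treated replicate 1 (−0.38, p 0.0436), or with GC content and length corrected for (−0.40, p 0.0315) or that correction plus a replicate block (−0.40, p 0.042), with adjusted p from 0.0315 to 0.43 over 21 alternatives.

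*Btg2*, an antiproliferative transcription cofactor, was the scarcest tested member, at 0.46, 1.55 and 1.37 TPM in untreated NTC, 1.63, 1.44 and 0.865 TPM in treated NTC, 2.29, 4.56 and 3.26 TPM in untreated DKO and 2.64, 2.91 and 2.32 TPM in treated DKO libraries. Every DKO library was above every NTC library, though replicates of *Btg2* spread widely. The differences were 1.05 (SE 0.221, adjusted p = 0.00232) and 0.66 (SE 0.221, adjusted p = 0.028), and the ratios of mean TPM were 2.99 and 1.99. With a pseudocount of 0.1 the untreated difference of *Btg2* was 1.59, p 0.00475. In treated cells *Btg2* no longer passed without NTC treated replicate 3 (0.51, p 0.113), DKO treated replicate 1 (0.65, p 0.0655) or DKO treated replicate 2 (0.60, p 0.0844), or with low values left in (0.66, p 0.0502), with adjusted p from 0.0095 to 0.113 over 21 alternatives.

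**Figure D2:**
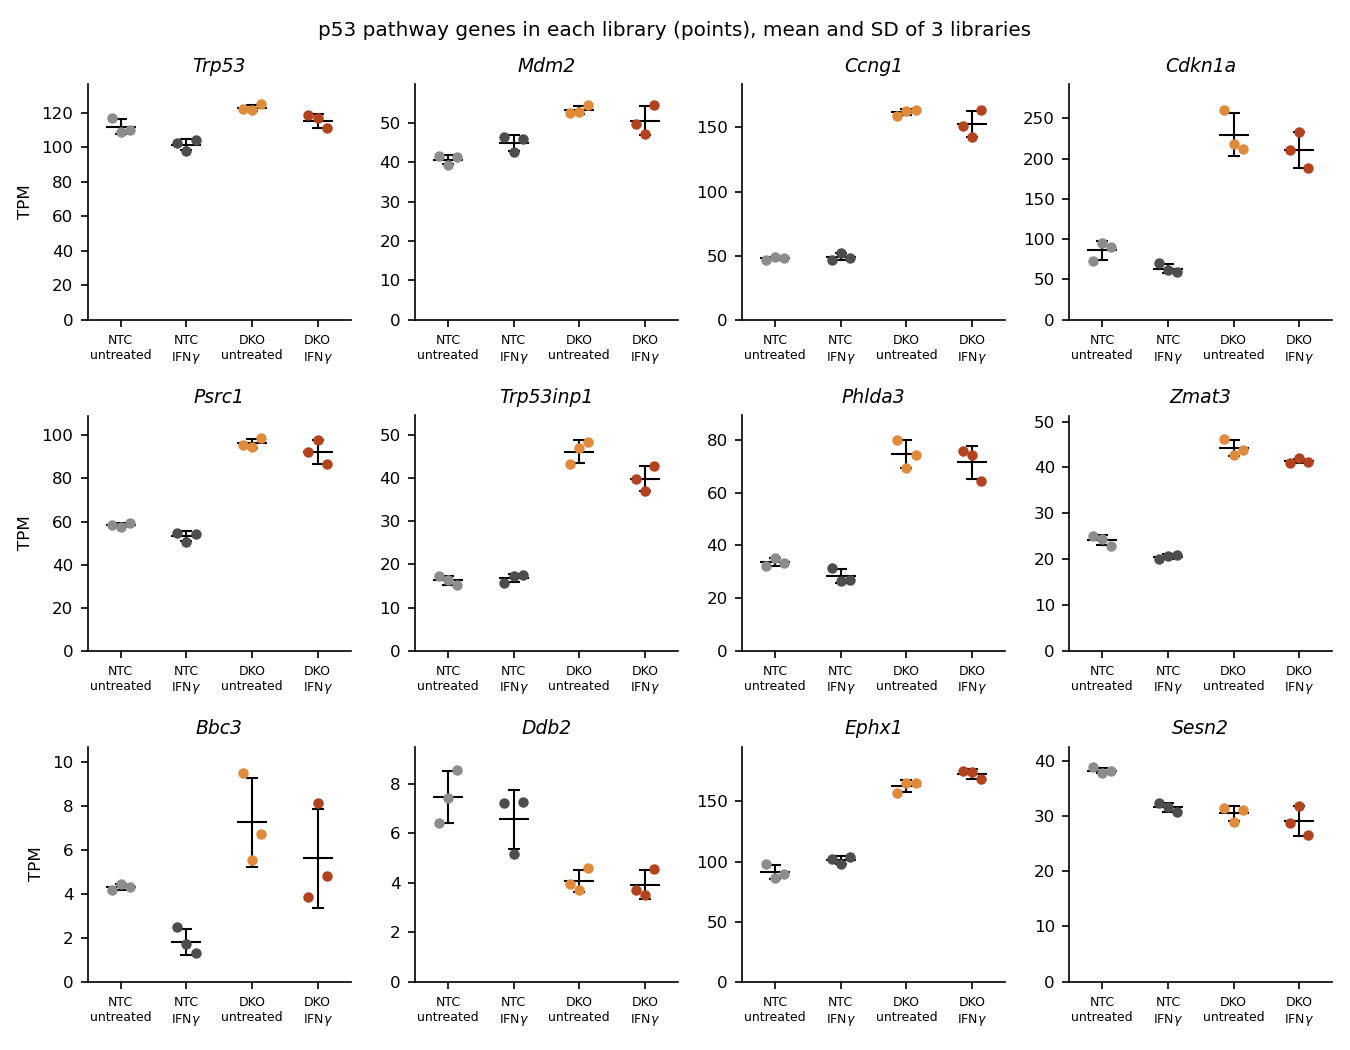
TPM of 12 members in each library, with 1 point per library and the mean and SD of 3 libraries in black. *Mdm2*, *Ccng1*, *Cdkn1a*, *Psrc1*, *Trp53inp1*, *Phlda3*, *Zmat3* and *Ephx1* are higher in all 6 DKO libraries than in all 6 NTC libraries, *Ddb2* is lower in all 6, and each vertical axis starts at 0.

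Apoptosis was the largest arm, with 14 members. Of the 10 tested, all rose in untreated cells, with a median difference of 0.70, and 8 of 10 rose in treated cells, with a median of 0.95. Of all tested genes 17.0% rose in untreated and 19.5% in treated cells. The remaining 4 members of the arm did not reach the filter. *Pmaip1* (NOXA) and the death receptor gene *Fas* were listed at 0 in all 12 libraries. Without read counts, absent RNA and RNA that was not assigned to a gene cannot be told apart, here and wherever a gene is listed at 0. *Eda2r*, another receptor gene, was listed at 0 in 5 of 6 NTC libraries and at 0.553 to 0.879 TPM in DKO libraries, and *Perp* ranged from 0.228 to 0.614 TPM.

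*Trp53inp1* encodes a stress protein that promotes p53 activity and autophagy (ENSMUSG00000028211, chr4:11156431-11174379). It stood at 17.2, 16.3 and 15.3 TPM in untreated NTC, 15.7, 17.2 and 17.4 TPM in treated NTC, 43.1, 46.9 and 48.2 TPM in untreated DKO and 39.7, 37.1 and 42.7 TPM in treated DKO libraries. *Phlda3*, which encodes an inhibitor of the survival kinase AKT, stood at 32.3, 35.2 and 33.3 TPM in untreated NTC, 31.5, 26.5 and 27 TPM in treated NTC, 80, 69.5 and 74.4 TPM in untreated DKO and 75.8, 74.4 and 64.4 TPM in treated DKO libraries. For both genes all DKO libraries were far above all NTC libraries, with ratios of mean TPM of 2.83 and 2.37 for *Trp53inp1* and of 2.22 and 2.53 for *Phlda3*. *Trp53inp1* differed by 1.45 (SE 0.0678, adjusted p = 8.53e-09) and 1.2 (SE 0.0678, adjusted p = 4.19e-08), and *Phlda3* by 1.13 (SE 0.0781, adjusted p = 2.54e-07) and 1.31 (SE 0.0781, adjusted p = 6.52e-08).

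*Tnfrsf10b* encodes the mouse receptor for the death ligand TRAIL and stood at 4.84, 3.96 and 5.54 TPM in untreated NTC, 4.62, 4.6 and 5.64 TPM in treated NTC, 11, 10.8 and 11 TPM in untreated DKO and 11.3, 10.4 and 11.3 TPM in treated DKO libraries. *Zmat3*, an RNA-binding zinc finger gene, stood at 25, 24.3 and 23 TPM in untreated NTC, 19.9, 20.8 and 20.9 TPM in treated NTC, 46.2, 42.7 and 43.9 TPM in untreated DKO and 41, 42 and 41.2 TPM in treated DKO libraries. *Aen*, which encodes a nuclease that cuts DNA in dying cells, stood at 32.3, 27.9 and 31.2 TPM in untreated NTC, 27.2, 26.5 and 24.6 TPM in treated NTC, 55.9, 53.4 and 51 TPM in untreated DKO and 48.1, 55.9 and 48.2 TPM in treated DKO libraries. No DKO library of these 3 genes overlapped an NTC library. *Tnfrsf10b* differed by 1.06 (SE 0.0985, adjusted p = 3.62e-06) and 1.02 (SE 0.0985, adjusted p = 4.29e-06), *Zmat3* by 0.85 (SE 0.0493, adjusted p = 5.02e-08) and 0.98 (SE 0.0493, adjusted p = 2.23e-08), and *Aen* by 0.79 (SE 0.0707, adjusted p = 2.46e-06) and 0.93 (SE 0.0707, adjusted p = 5.46e-07).

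*Bbc3* encodes PUMA, a killer protein of the BCL2 family, and was low and variable, at 4.19, 4.44 and 4.29 TPM in untreated NTC, 2.48, 1.7 and 1.3 TPM in treated NTC, 9.5, 5.56 and 6.73 TPM in untreated DKO and 3.86, 8.14 and 4.83 TPM in treated DKO libraries. DKO libraries were above NTC libraries at each treatment, but 1 treated DKO library was under the untreated NTC libraries. The differences were 0.61 (SE 0.218, adjusted p = 0.0424) and 1.19 (SE 0.218, adjusted p = 0.00072). In untreated cells *Bbc3* no longer passed without NTC untreated replicate 1 (0.60, p 0.0997), NTC untreated replicate 2 (0.63, p 0.0766), NTC untreated replicate 3 (0.61, p 0.0894), NTC treated replicate 2 (0.61, p 0.0521), DKO untreated replicate 1 (0.42, p 0.175) or DKO untreated replicate 3 (0.65, p 0.0738), or with a pseudocount of 0.1 (0.71, p 0.0554), low values left in (0.61, p 0.0795), a replicate block (0.61, p 0.0547) or no intensity trend (0.61, p 0.0607), with adjusted p from 0.0063 to 0.175 over 21 alternatives.

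*Rps27l*, a ribosomal protein paralogue that p53 induces, was the most abundant member, at 518, 532 and 512 TPM in untreated NTC, 590.1, 625 and 609 TPM in treated NTC, 659.8, 684 and 701 TPM in untreated DKO and 696, 653 and 724 TPM in treated DKO libraries. DKO libraries were higher at each treatment, by 0.39 (SE 0.0423, adjusted p = 1.34e-05) and 0.18 (SE 0.0423, adjusted p = 0.00356). Correction for GC content and length gave *Rps27l* a treated difference of 0.33. The pore-forming gene *Bax* ranged from 198 to 226 TPM in NTC and from 241 to 294 TPM in DKO libraries, with differences of 0.33 (adjusted p = 0.000266) and 0.35 (adjusted p = 0.000144), and its treated difference no longer passed with GC content and length corrected for (0.11, p 0.156) or that correction plus a replicate block (0.11, p 0.176), with adjusted p from 1.71e-05 to 0.176 over 22 alternatives. *Apaf1*, the apoptosome scaffold gene, rose in untreated cells, 0.28 (adjusted p = 0.00156), and missed the threshold in treated cells, 0.14 (adjusted p = 0.0566). The treated difference of *Apaf1* did pass without DKO treated replicate 2 (0.18, p 0.0279), or with libraries scaled to the same total (0.22, p 0.00422), median-ratio scaling (0.16, p 0.0308), GC content and length corrected for (0.17, p 0.00701) or that correction plus a replicate block (0.17, p 0.00988), with adjusted p from 0.00422 to 0.203 over 22 alternatives. *Ei24*, an endoplasmic reticulum gene of the p53 response, passed in untreated cells, 0.15 (adjusted p = 0.0445), and not in treated cells, 0.02 (adjusted p = 0.807). The untreated difference of *Ei24* no longer passed without NTC untreated replicate 1 (0.17, p 0.054), NTC untreated replicate 2 (0.17, p 0.0591), NTC untreated replicate 3 (0.11, p 0.176), NTC treated replicate 3 (0.15, p 0.0525), DKO untreated replicate 1 (0.17, p 0.0545), DKO untreated replicate 2 (0.16, p 0.0841), DKO untreated replicate 3 (0.12, p 0.152) or DKO treated replicate 1 (0.15, p 0.058), or with low values left in (0.15, p 0.0591), a replicate block (0.15, p 0.0606) or no intensity trend (0.15, p 0.0703), with adjusted p from 0.00736 to 0.176 over 22 alternatives.

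The repair and nucleotide supply arm had 5 tested genes. In untreated cells 1 of 5 genes rose, 1 fell and 3 did not pass, and in treated cells 2 rose, 1 fell and 2 did not pass. Of all tested genes 17.0% rose and 19.4% fell in untreated and 19.5% rose and 23.9% fell in treated cells. *Ddb2*, which encodes a sensor of ultraviolet damage (ENSMUSG00000002109, chr2:91211572-91236982), stood at 6.42, 7.4 and 8.54 TPM in untreated NTC, 7.24, 5.18 and 7.25 TPM in treated NTC, 3.95, 3.71 and 4.58 TPM in untreated DKO and 3.72, 3.49 and 4.57 TPM in treated DKO libraries. Its 6 DKO values all lay under its 6 NTC values, with differences of −0.73 (SE 0.132, adjusted p = 0.000773) and −0.61 (SE 0.132, adjusted p = 0.0023), the lowest of the tested members at each treatment. *Ddb2* shares 652 exonic bases with *Acp2* on the opposite strand, and the libraries are unstranded, so reads from that stretch cannot be told apart by strand. *Acp2* had mean values of 29.9 TPM in NTC and 20.6 TPM in DKO libraries, and its part in the *Ddb2* difference was not tested.

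*Ercc5*, an excision repair nuclease gene, ranged from 18.2 to 19.9 TPM in NTC and from 20.2 to 22.3 TPM in DKO libraries, with small differences of 0.18 (adjusted p = 0.013) and 0.15 (adjusted p = 0.0295). With the same total the treated difference of *Ercc5* was 0.23 (adjusted p = 0.00236). In untreated cells *Ercc5* no longer passed without NTC untreated replicate 3 (0.16, p 0.0544) or DKO untreated replicate 2 (0.16, p 0.0537), with adjusted p from 0.00301 to 0.0544 over 22 alternatives. In treated cells it no longer passed without NTC treated replicate 1 (0.14, p 0.0715), NTC treated replicate 2 (0.15, p 0.0516), NTC treated replicate 3 (0.14, p 0.0656), DKO treated replicate 1 (0.14, p 0.0742) or DKO treated replicate 2 (0.14, p 0.0661), or with only the 6 compared libraries fitted (0.15, p 0.0773), with adjusted p from 0.00236 to 0.0773 over 22 alternatives. *Xpc*, which encodes a damage recognition factor, ranged from 12.7 to 14.7 TPM in NTC and from 15.1 to 17.1 TPM in DKO cells. Its difference was 0.11 (adjusted p = 0.23) in untreated cells, which did not pass, and 0.20 (adjusted p = 0.0263) in treated cells, which did. The treated difference of *Xpc* no longer passed without NTC treated replicate 3 (0.14, p 0.121), DKO treated replicate 2 (0.16, p 0.101) or DKO treated replicate 3 (0.20, p 0.0506), or with only the 6 compared libraries fitted (0.20, p 0.0826), GC content and length corrected for (0.14, p 0.0871) or that correction plus a replicate block (0.14, p 0.1), with adjusted p from 0.00548 to 0.121 over 22 alternatives. The translesion polymerase gene *Polk* and the ribonucleotide reductase gene *Rrm2b* passed at neither treatment. The differences were −0.01 (adjusted p = 0.931) and −0.06 (adjusted p = 0.574) for *Polk* and −0.10 (adjusted p = 0.353) and −0.15 (adjusted p = 0.15) for *Rrm2b*.

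In the metabolism, redox and secreted arm, 3 of 5 tested genes rose and 1 fell in untreated cells, and 4 rose in treated cells. Of all tested genes 17.0% rose and 19.4% fell in untreated and 19.5% rose and 23.9% fell in treated cells. *Ephx1*, an epoxide hydrolase gene, stood at 97.8, 86.6 and 89.5 TPM in untreated NTC, 102, 97.7 and 104 TPM in treated NTC, 157, 165 and 166 TPM in untreated DKO and 176, 174 and 168 TPM in treated DKO libraries. *Ak1*, which encodes adenylate kinase, stood at 11.1, 13.4 and 12.4 TPM in untreated NTC, 8.93, 7.81 and 11.4 TPM in treated NTC, 22.1, 18.6 and 19 TPM in untreated DKO and 21.1, 20.1 and 17.8 TPM in treated DKO libraries. *Dcxr*, a carbonyl reductase gene, stood at 17.6, 18 and 14.2 TPM in untreated NTC, 14.6, 13.5 and 15.8 TPM in treated NTC, 24.6, 25.2 and 26.6 TPM in untreated DKO and 23.2, 29 and 19.5 TPM in treated DKO libraries. For all 3 genes the DKO libraries lay above the NTC libraries at each treatment. *Ephx1* differed by 0.83 (SE 0.048, adjusted p = 5.02e-08) and 0.77 (SE 0.048, adjusted p = 1.01e-07), *Ak1* by 0.65 (SE 0.115, adjusted p = 0.000701) and 1.00 (SE 0.115, adjusted p = 1.81e-05), and *Dcxr* by 0.59 (SE 0.118, adjusted p = 0.00157) and 0.66 (SE 0.118, adjusted p = 0.000625).

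Of the sestrin genes, whose products restrain mTORC1 under stress, neither passed as a rise at both treatments. *Sesn2* stood at 38.8, 37.8 and 38 TPM in untreated NTC, 32.3, 31.7 and 30.7 TPM in treated NTC, 31.5, 28.9 and 31.1 TPM in untreated DKO and 28.7, 31.9 and 26.5 TPM in treated DKO libraries. Untreated DKO libraries were below untreated NTC libraries, and the treated groups overlapped. The difference was −0.32 (SE 0.0619, adjusted p = 0.00133) in untreated and −0.12 (SE 0.0619, adjusted p = 0.134) in treated cells. The treated difference of *Sesn2* did pass without DKO treated replicate 2 (−0.19, p 0.0196), or with GC content and length corrected for (−0.29, p 0.000136) or that correction plus a replicate block (−0.29, p 0.000558), with adjusted p from 0.000136 to 0.683 over 22 alternatives. *Sesn1* ranged from 7.68 to 8.9 TPM in NTC and from 8.12 to 11.1 TPM in DKO libraries. *Sesn1* passed in treated cells, 0.24 (adjusted p = 0.035), and not in untreated cells, 0.08 (adjusted p = 0.482). Its treated difference no longer passed without NTC treated replicate 2 (0.19, p 0.131), NTC treated replicate 3 (0.25, p 0.0642) or DKO treated replicate 1 (0.17, p 0.151), or with low values left in (0.24, p 0.0525) or only the 6 compared libraries fitted (0.24, p 0.0673), with adjusted p from 0.00868 to 0.151 over 22 alternatives. The secreted factor gene *Gdf15* stayed under the filter, between 0 and 0.606 TPM.

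Whether IFNγ added to the genotype difference was asked with the interaction, the difference at treatment minus the difference without it. It passed for 0 of 31 members with limma, and for 0.00857% (higher) and 0.0257% (lower) of all tested genes. At an unadjusted p under 0.05 there were 5 members, *Sesn2* and *Ak1* with a higher and *Mdm2*, *Trp53inp1* and *Rps27l* with a lower value under IFNγ, against 11.5% of all tested genes. The interaction was above 0 for 16 members and below 0 for 15, whichever way the genotype difference went. The lowest adjusted p among members was 0.364. *Bbc3* had the largest interaction, 0.58 (95% interval −0.08 to 1.25), and *Cdkn1a* stood at 0.31 (−0.02 to 0.64), *Ccng1* at −0.12 (−0.28 to 0.04), *Trp53inp1* at −0.25 (−0.46 to −0.04) and *Mdm2* at −0.22 (−0.39 to −0.05). After correction for GC content and length the interaction of *Rps27l* went from −0.20 to −0.09 (adjusted p = 0.674). The intervals are not adjusted for the number of genes, and those of *Trp53inp1* and *Mdm2* do not hold 0. A p-value above the threshold does not show that the differences were equal. By arm, the median interaction was −0.10 for regulators and feedback, 0.04 for arrest, −0.01 for apoptosis, −0.03 for repair and 0.16 for metabolism, beside −0.01 for all tested genes. The apoptosis and repair values turned to 0.02 and 0.00294 with libraries scaled to the same total. That scaling also turned the value of all tested genes to 0.03 and moved that of arrest to 0.08.

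The genotype differences at the 2 treatments, which share no library, had a Pearson r of 0.942 across the 31 members and of 0.811 across all 11663 tested genes. Genes are not independent replicates, and r here describes these points only.

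**Figure D3:**
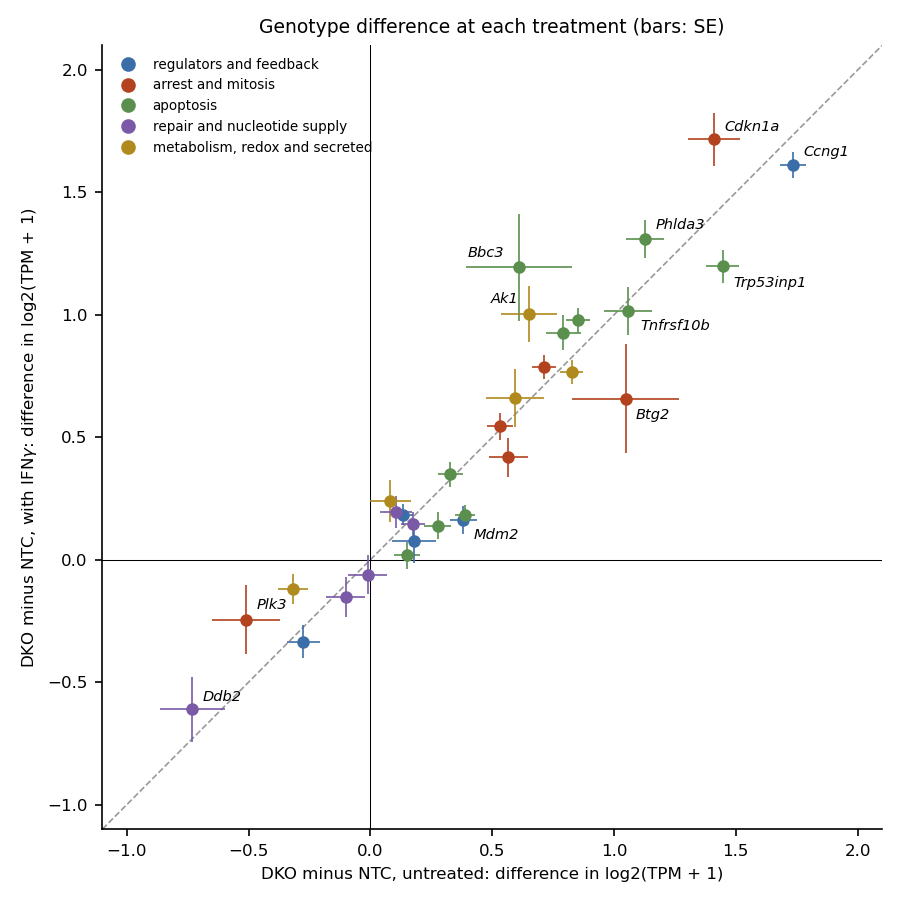
DKO minus NTC difference in log2(TPM + 1) of the 31 tested members without IFNγ (horizontal) and with it (vertical), with SE bars, colored by arm. The dashed line marks equal differences. Most members lie near it, and *Bbc3* (0.61 and 1.19) lies farthest from it.

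The response to IFNγ was also tested within each genotype. In NTC cells 1 of 31 members rose and 5 fell, whereas 7.31% of all tested genes rose and 4.78% fell. These shares rest on 1411 called genes, a number that ran from 317 to 2023 with 1 library left out. The share of higher genes among all called genes in NTC cells went from 60.5% to 45.1% with libraries scaled to the same total and to 46.0% with median-ratio scaling. In DKO cells 0 of 31 members passed with limma, against 0.677% higher and 0.103% lower of all tested genes. At an unadjusted p under 0.05 there was 1 member, *Trp53inp1*, beside 9.59% of all tested genes. As a check of the treatment, the IFNγ-induced genes *Irf1*, *Gbp2*, *B2m* and *Psmb9* rose in NTC cells, by 1.14, 2.83, 2.58 and 2.55, and in DKO cells, by 0.93, 2.55, 1.95 and 1.46 (each with an adjusted p under 0.05, under every alternative run).

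The members that fell with IFNγ in NTC cells were *Bbc3*, *Cdkn1a*, *Sesn2*, *Zmat3* and *Trp53*. Every treated NTC library was below every untreated NTC library for each of them, as the values given above show. *Bbc3* fell most, −0.93 (SE 0.218, adjusted p = 0.0201), followed by *Cdkn1a*, −0.43 (SE 0.108, adjusted p = 0.0261), *Sesn2*, −0.27 (SE 0.0619, adjusted p = 0.0186), *Zmat3*, −0.22 (SE 0.0493, adjusted p = 0.0171), and *Trp53*, −0.14 (SE 0.0427, adjusted p = 0.0491). *Rps27l* was the member that rose, 0.22 (SE 0.0423, adjusted p = 0.00926). In DKO cells the same genes gave −0.35 (adjusted p = 0.659) for *Bbc3*, −0.12 (adjusted p = 0.773) for *Cdkn1a*, −0.07 (adjusted p = 0.77) for *Sesn2*, −0.09 (adjusted p = 0.584) for *Zmat3*, −0.09 (adjusted p = 0.531) for *Trp53* and 0.02 (adjusted p = 0.937) for *Rps27l*. Since no interaction passed, these responses are not shown to differ between genotypes.

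None of these 6 results in NTC cells passed under every alternative. *Bbc3* no longer passed without NTC untreated replicate 2 (−0.91, p 0.0656), NTC untreated replicate 3 (−0.93, p 0.0613), NTC treated replicate 2 (−0.91, p 0.0667) or NTC treated replicate 3 (−0.79, p 0.0818), or with GC content and length corrected for (−0.55, p 0.0609) or that correction plus a replicate block (−0.55, p 0.0899), with adjusted p from 0.00631 to 0.0899 over 21 alternatives. *Cdkn1a* no longer passed without NTC untreated replicate 2 (−0.35, p 0.102), NTC untreated replicate 3 (−0.39, p 0.0881), NTC treated replicate 2 (−0.40, p 0.0891) or NTC treated replicate 3 (−0.38, p 0.0965), or with low values left in (−0.43, p 0.0539), GC content and length corrected for plus a replicate block (−0.38, p 0.0569) or no intensity trend (−0.43, p 0.0549), with adjusted p from 0.0144 to 0.102 over 22 alternatives. For *Sesn2* this was so without NTC untreated replicate 2 (−0.28, p 0.0569), NTC untreated replicate 3 (−0.27, p 0.0602), NTC treated replicate 2 (−0.27, p 0.0574) or NTC treated replicate 3 (−0.25, p 0.0715), or with GC content and length corrected for (−0.10, p 0.218) or that correction plus a replicate block (−0.10, p 0.278), with adjusted p from 0.00629 to 0.278 over 22 alternatives. For *Zmat3* it was so without NTC untreated replicate 2 (−0.21, p 0.0612) or NTC treated replicate 2 (−0.23, p 0.0521), with adjusted p from 0.00425 to 0.0612 over 22 alternatives. *Trp53* failed without NTC untreated replicate 1 (−0.11, p 0.129), NTC untreated replicate 2 (−0.16, p 0.0859), NTC untreated replicate 3 (−0.15, p 0.0974), NTC treated replicate 1 (−0.15, p 0.0663), NTC treated replicate 2 (−0.11, p 0.16), NTC treated replicate 3 (−0.16, p 0.0845), DKO untreated replicate 1 (−0.14, p 0.0616), DKO untreated replicate 2 (−0.14, p 0.0641), DKO untreated replicate 3 (−0.14, p 0.0669) or DKO treated replicate 1 (−0.14, p 0.0625), or with a pseudocount of 0.1 (−0.14, p 0.0503), low values left in (−0.14, p 0.0602), a replicate block (−0.14, p 0.0643), only the 6 compared libraries fitted (−0.14, p 0.071), GC content and length corrected for (−0.10, p 0.159), that correction plus a replicate block (−0.10, p 0.177) or no intensity trend (−0.14, p 0.0848), with adjusted p from 0.0269 to 0.177 over 22 alternatives. The rise of *Rps27l* no longer passed with GC content and length corrected for (0.09, p 0.177) or that correction plus a replicate block (0.09, p 0.139), with adjusted p from 0.00272 to 0.177 over 22 alternatives.

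Further members missed the threshold in NTC cells and passed under some alternatives. *Ak1*, −0.37 (adjusted p = 0.0521), passed without NTC treated replicate 3 (−0.51, p 0.0231) or DKO treated replicate 3 (−0.37, p 0.0441), or with a mean of at least 5 TPM required (−0.37, p 0.0403), libraries scaled to the same total (−0.40, p 0.0485) or median-ratio scaling (−0.39, p 0.0463), with adjusted p from 0.0231 to 0.183 over 22 alternatives. *Phlda3*, −0.24 (adjusted p = 0.058), did so without NTC treated replicate 1 (−0.32, p 0.0219) or DKO treated replicate 3 (−0.24, p 0.0342), or with a mean of at least 5 TPM required (−0.24, p 0.0457) or median-ratio scaling (−0.27, p 0.0474), with adjusted p from 0.0219 to 0.781 over 22 alternatives. *Psrc1*, −0.14 (adjusted p = 0.0806), did so without DKO treated replicate 2 (−0.14, p 0.0474) or DKO treated replicate 3 (−0.14, p 0.0466), with adjusted p from 0.0466 to 0.251 over 22 alternatives, and *Ephx1*, 0.15 (adjusted p = 0.0587), without NTC untreated replicate 1 (0.20, p 0.027) or DKO treated replicate 3 (0.15, p 0.0497), with adjusted p from 0.027 to 0.202 over 22 alternatives. *Aen*, −0.21 (adjusted p = 0.0659), passed without DKO treated replicate 2 (−0.21, p 0.0331), with adjusted p from 0.0331 to 0.2 over 22 alternatives, and *Bax*, −0.13 (adjusted p = 0.114), without DKO treated replicate 3 (−0.13, p 0.0424), with adjusted p from 0.0424 to 0.313 over 22 alternatives. After correction for GC content and length *Bax* (0.18, p 0.11) and *Phlda3* (0.03, p 0.781) changed sign and did not pass. None of these 6 was counted among the responses above.

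**Figure D4:**
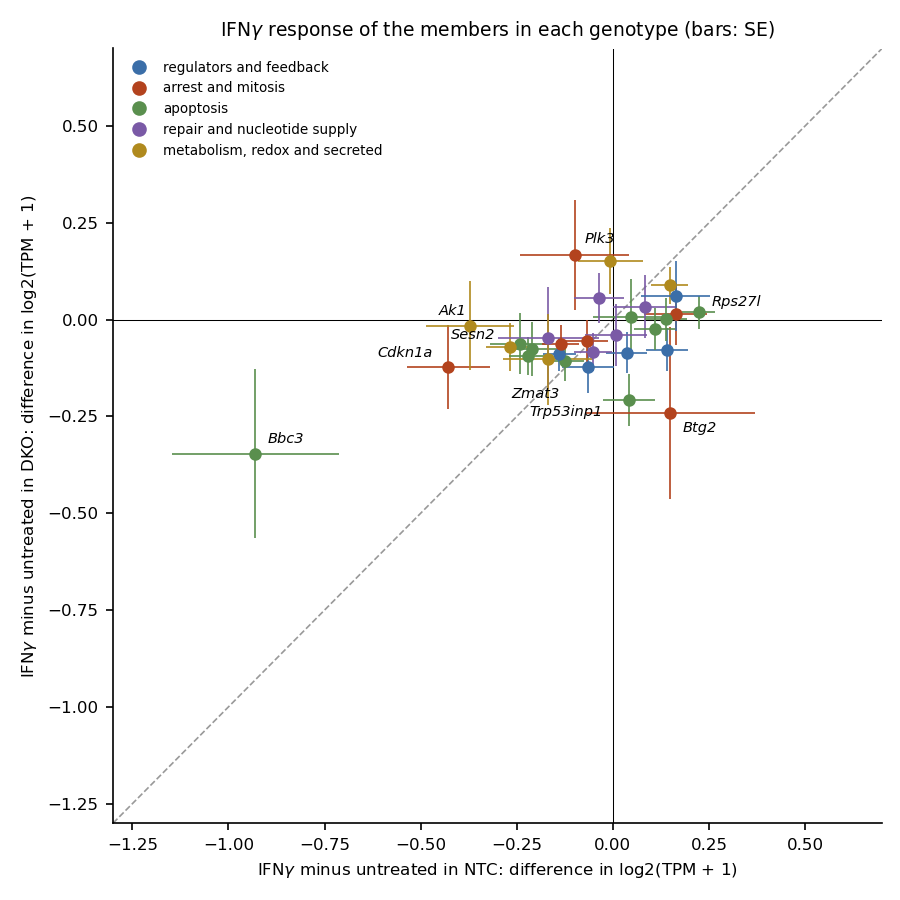
Response to IFNγ (treated minus untreated, in log2(TPM + 1)) of the 31 tested members in NTC cells (horizontal) and in DKO cells (vertical), with SE bars, colored by arm; the dashed line marks equal responses. *Bbc3* lies farthest left, at −0.93 in NTC and −0.35 in DKO cells, and most members lie near 0 in DKO cells.

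Other genes of the pathway did not follow as a block. Of 27 further p53 targets, 21 were tested. Beside them, 17.0% of all tested genes rose and 19.4% fell in untreated cells, and 19.5% and 23.9% in treated cells. In untreated cells 6 targets rose and 6 fell (median −0.01, or 0.02 with libraries scaled to the same total). In treated cells 7 rose and 6 fell (median 0.175). With the same total these counts were 7 and 4 in untreated and 8 and 4 in treated cells. The largest rises among genes whose DKO and NTC libraries did not overlap were those of *Cpt1c*, a carnitine palmitoyltransferase gene, 0.89 (adjusted p = 1.09e-06) and 1.01 (adjusted p = 3.06e-07), the death-domain gene *Pidd1*, 0.69 (adjusted p = 0.00012) and 0.81 (adjusted p = 2.66e-05), and the metalloreductase gene *Steap3*, 0.52 (adjusted p = 8.85e-05) and 0.72 (adjusted p = 4.4e-06). The largest falls were those of *Pltp*, a phospholipid transfer protein gene, −1.27 (adjusted p = 1.74e-06) and −1.09 (adjusted p = 5.29e-06), the tetraspanin gene *Cd82*, −0.91 (adjusted p = 2.53e-07) and −1.02 (adjusted p = 9.73e-08), and the antiproliferative gene *Btg1*, −0.49 (adjusted p = 0.00249) and −0.64 (adjusted p = 0.00034).

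Of 17 genes that act upstream of p53, such as damage kinases, acetyltransferases and ubiquitin ligases, 14 were tested. In untreated cells 2 rose and 2 fell (median −0.07), and in treated cells 0 rose and 4 fell (median −0.10). These medians were −0.0176 and −0.0149 with libraries scaled to the same total. For comparison, 17.0% of all tested genes rose and 19.4% fell in untreated cells, and 19.5% rose and 23.9% fell in treated cells. The treated counts moved between alternatives: 1 rose and 1 fell with libraries scaled to the same total, and 2 rose and 4 fell after correction for GC content and length. The acetyltransferase gene *Ep300* was lower, −0.28 (adjusted p = 0.00118) and −0.17 (adjusted p = 0.0234), and the kinase gene *Atr* passed with IFNγ, −0.30 (adjusted p = 0.0034) beside −0.15 (adjusted p = 0.117) without it. With IFNγ *Ep300* no longer passed without NTC treated replicate 3 (−0.14, p 0.0916) or DKO treated replicate 1 (−0.13, p 0.0972), or with only the 6 compared libraries fitted (−0.17, p 0.0765) or libraries scaled to the same total (−0.08, p 0.253), with adjusted p from 0.000714 to 0.253 over 22 alternatives. *Cdkn2a*, whose alternative product ARF blocks MDM2, was listed at 0 in all 12 libraries.

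The 15 cell cycle genes that are repressed through p21 and the DREAM complex were all tested. In untreated cells 4 rose and 3 fell (median −0.00498), and in treated cells 4 rose and 5 fell (median −0.0026). The shares of all tested genes were 17.0% higher and 19.4% lower in untreated and 19.5% and 23.9% in treated cells. Scaling to the same total turned these medians to 0.04 and 0.08, and those of all tested genes to 0.04 and 0.07. Then 6 of the 15 rose and 0 fell in untreated cells, and 6 rose and 4 fell in treated cells. The falls in untreated cells therefore depend on how libraries are scaled. With 1 library left out, 2 to 4 rose and 1 to 5 fell in untreated and 3 to 4 rose and 4 to 6 fell in treated cells. *Cdc20*, an activator of the anaphase-promoting complex, rose by 0.46 (adjusted p = 0.000129) and 0.42 (adjusted p = 0.000207), and differences of *Plk1* were 0.20 (adjusted p = 0.0133) and 0.19 (adjusted p = 0.0154) and of *Foxm1* 0.09 (adjusted p = 0.149) and 0.21 (adjusted p = 0.00231). *Plk1* no longer passed in untreated cells without NTC untreated replicate 1 (0.15, p 0.0636) or DKO untreated replicate 1 (0.16, p 0.0645), with adjusted p from 0.00258 to 0.0645 over 22 alternatives. In treated cells it no longer passed without NTC treated replicate 2 (0.17, p 0.0522) or DKO treated replicate 2 (0.14, p 0.064), or with GC content and length corrected for (0.10, p 0.0592) or that correction plus a replicate block (0.10, p 0.0755), with adjusted p from 0.00266 to 0.0755 over 22 alternatives. *Foxm1* passed in untreated cells with libraries scaled to the same total (0.14, p 0.0355), with adjusted p from 0.0355 to 0.325 over 22 alternatives, and no longer passed in treated cells with GC content and length corrected for (0.11, p 0.0508) or that correction plus a replicate block (0.11, p 0.0654), with adjusted p from 0.000278 to 0.0654 over 22 alternatives. Differences of the checkpoint kinase gene *Bub1b* were −0.10 (adjusted p = 0.0822) and −0.28 (adjusted p = 0.000182), and the cyclin genes *Ccnb1* and *Ccnb2* differed by −0.13 (adjusted p = 0.0234) and −0.13 (adjusted p = 0.0088) in untreated and by −0.21 (adjusted p = 0.000915) and −0.18 (adjusted p = 0.00122) in treated cells. *Ccnb1* no longer passed in untreated cells without NTC untreated replicate 1 (−0.12, p 0.0626), NTC untreated replicate 3 (−0.12, p 0.0667), DKO untreated replicate 1 (−0.11, p 0.0811) or DKO untreated replicate 2 (−0.12, p 0.0763), or with libraries scaled to the same total (−0.08, p 0.113), with adjusted p from 0.0115 to 0.113 over 22 alternatives, and *Ccnb2* no longer passed there with libraries scaled to the same total (−0.08, p 0.0637), with adjusted p from 0.00525 to 0.0637 over 22 alternatives. In treated cells the same total gave −0.12 (adjusted p = 0.0133) for *Ccnb1* and −0.09 (adjusted p = 0.0397) for *Ccnb2*, and correction for GC content and length gave −0.09 (adjusted p = 0.0242) for *Ccnb1*.

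The gene of the stress factor ATF4 and most of its listed targets were lower in DKO cells, and *Sesn2* is a known target of both ATF4 and p53. Of 8 genes, 7 fell in untreated (median −1.09) and 7 in treated cells (median −1.07), and none rose, whereas 19.4% and 23.9% of all tested genes fell. The other gene, *Ddit4*, 0.34 (adjusted p = 0.0565) in treated cells, did pass as a rise without NTC untreated replicate 1 (0.34, p 0.029), NTC treated replicate 1 (0.45, p 0.0233) or DKO untreated replicate 1 (0.34, p 0.0466), or with a mean of at least 5 TPM required (0.34, p 0.0429), only the 6 compared libraries fitted (0.34, p 0.0438), libraries scaled to the same total (0.43, p 0.026) or median-ratio scaling (0.36, p 0.0474), with adjusted p from 0.0233 to 0.224 over 22 alternatives. *Nupr1*, a stress-induced chromatin factor gene, stood at 183, 136 and 141 TPM in untreated NTC, 136, 136 and 156 TPM in treated NTC, 25.2, 33.7 and 30.9 TPM in untreated DKO and 24.7, 28.8 and 29.3 TPM in treated DKO libraries, with all DKO values under all NTC values. *Nupr1* differed by −2.32 (adjusted p = 2.19e-08) and −2.33 (adjusted p = 2.27e-08), the pseudokinase gene *Trib3* by −1.72 (adjusted p = 1.16e-09) and −1.47 (adjusted p = 5.87e-09), and the transcription factor gene *Atf3* by −1.39 (adjusted p = 2.41e-07) and −1.33 (adjusted p = 3.06e-07). The part of this list in the lower *Sesn2* values was not tested.

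**Figure D5:**
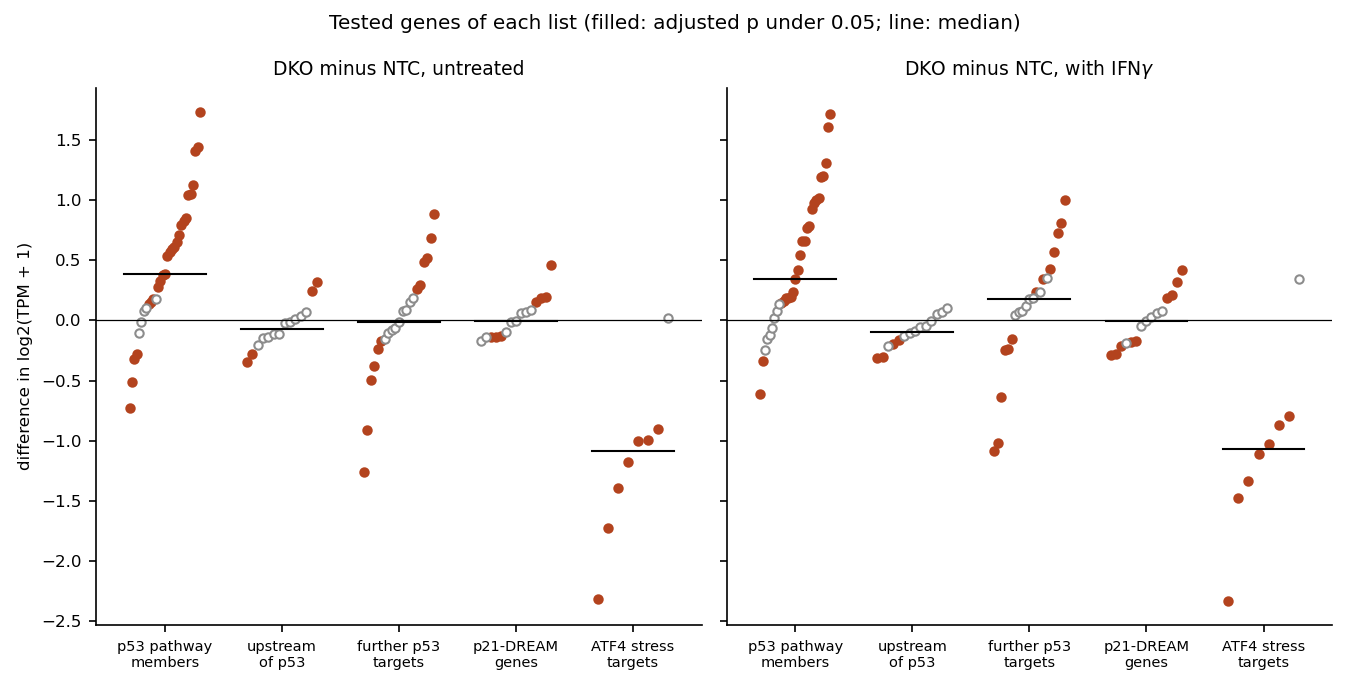
DKO minus NTC differences in log2(TPM + 1) of every tested gene of the p53 members and of 4 further lists, without IFNγ (left) and with it (right). Filled points passed an adjusted p of 0.05 and lines mark medians, which were 0.39 and 0.35 for the members and −1.09 and −1.07 for ATF4 targets.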

How the data were processed

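Poly(A)-selected, unstranded RNA-seq of 12 libraries was deposited as a table of TPM. The authors made these with RSEM 1.2.4 calling Bowtie on a merged mouse annotation; how libraries were scaled to each other is not stated. limma 3.58.1 (R 4.3.3) was run on log2(TPM + 1), with 1 mean per group and an intensity trend, for the 11663 genes that reached 1 TPM in 3 or more libraries, with Benjamini-Hochberg adjustment over them and a threshold of 0.05. The procedure was tested on simulated data, and no library duplicated another of its group, the only pairs compared.

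The members and lists were chosen with earlier results of these data known. A member is given in every library if it passed between genotypes with a difference of at least 0.5 (log2) at either treatment, if it passed an IFNγ comparison or the interaction, or if it is *Trp53*, *Mdm2*, *Mdm4*, *Cdkn1a* or *Ppm1d*. Other lists name up to 3 genes per direction, the largest past the threshold with no overlap of libraries. *Pidd1*, *Tigar* and *Cop1* were matched by Ensembl ID, since the table holds older names. Annotation was GENCODE M21, and promoters came from RefSeq. Alternatives were a pseudocount of 0.1, low values left in (any gene above 0), a mean of at least 5 TPM, a replicate block, a fit of the 6 compared libraries (not applicable to the interaction), scaling to the same total or by median ratios, correction for GC content and gene length (known for 99.1% of tested genes) with and without the block, no intensity trend, and each library left out in turn. Python 3.11.15 with pandas 2.3.3, numpy 2.4.6 and matplotlib 3.10.9 made the summaries.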

Additional observations from a re-analysis of the deposited data

Results flagged for a closer look

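The IFNγ control genes *B2m* and *Psmb9* rose less with IFNγ in DKO than in NTC cells by the test of the difference itself, −0.63 (adjusted p = 0.0256) for *B2m* and −1.09 (adjusted p = 0.0256) for *Psmb9*. Neither passed under every alternative. The *B2m* difference failed in 9 of 21 alternatives, without NTC untreated replicate 1 (−0.66, p 0.0511), NTC untreated replicate 2 (−0.59, p 0.0851), NTC untreated replicate 3 (−0.64, p 0.096), NTC treated replicate 2 (−0.61, p 0.0592), NTC treated replicate 3 (−0.62, p 0.0588), DKO untreated replicate 2 (−0.63, p 0.0622), DKO untreated replicate 3 (−0.60, p 0.095) or DKO treated replicate 1 (−0.65, p 0.0546), or with no intensity trend (−0.63, p 0.0666). Its adjusted p ran from 0.000426 to 0.096. The *Psmb9* difference failed in 12 of 20, without NTC untreated replicate 1 (−1.12, p 0.0676), NTC untreated replicate 2 (−1.06, p 0.107), NTC untreated replicate 3 (−1.09, p 0.096), NTC treated replicate 1 (−1.03, p 0.057), NTC treated replicate 2 (−1.05, p 0.109), DKO untreated replicate 1 (−1.09, p 0.0588), DKO untreated replicate 2 (−1.05, p 0.071), DKO untreated replicate 3 (−1.13, p 0.095), DKO treated replicate 1 (−1.18, p 0.0546), DKO treated replicate 2 (−1.08, p 0.11) or DKO treated replicate 3 (−1.01, p 0.0756), or with a pseudocount of 0.1 (−1.20, p 0.0786), and its adjusted p ran from 0.0179 to 0.11. Over all tested genes 4 interactions passed, and 0 did so in 6 of the 12 fits with a library left out.

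*Gadd45a*, a p53 target of the growth arrest response, went down in all 3 treated NTC libraries (21.7, 15.6 and 15.6 TPM untreated, 14.1, 10.8 and 14 TPM treated) and up in all 3 treated DKO libraries (14, 12 and 13.6 and 15.5, 15 and 14 TPM). The nearest treated and untreated DKO values round to the same number. The difference of its responses was 0.57 (SE 0.173) and did not pass the threshold with limma (adjusted p = 0.364). It passed in 0 of 21 alternatives. *Gadd45a* was singled out after its values were seen.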

How the results depend on the processing

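Of the members called between genotypes, 21 of 26 in untreated and 18 of 24 in treated cells were called under every alternative run for them, and of the 6 called for IFNγ in NTC cells, 0 were. No member that passed changed direction in an alternative. Members that had not passed could change sign: after correction for GC content and length the IFNγ response in NTC cells went from −0.13 to 0.18 for *Bax* and from −0.24 to 0.03 for *Phlda3*. In treated cells the count of lower members went from 2 to 4 after correction for GC content and length, and *E2f1*, outside the set, went from 0.0303 to −0.119. The IFNγ response of *Sox10* in NTC cells, also outside the set, went from −0.254 to 0.0125 after that correction, with or without the block. For IFNγ in NTC cells, the count of lower members went from 5 to 3 with no filter and 3 with no intensity trend, and after correction for GC content and length 0 rose and 2 fell. With 1 library left out, 1 to 2 rose and 0 to 9 fell. Over all tested genes, 1411 were called for IFNγ in NTC cells, against 519 after that correction, 407 with the block as well, 737 with no intensity trend and 897 with no filter. With 1 library left out the number ran from 317 to 2023, lowest without NTC treated replicate 3 and highest without DKO treated replicate 2. The cause was not tested. Promoter matches went from 4 members to 1 with no mismatch allowed, which is stricter by construction. TPM keep no depth, which limits what can be said of *Btg2*, *Bbc3* and the 5 untested members.

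Samples with the same replicate number did not vary together, with correlations of their deviations from −0.18 to 0.12, so the numbers were not read as pairs. With a replicate block, 20 members rose and 4 fell in untreated and 22 and 2 in treated DKO against NTC cells, and 1 rose and 4 fell with IFNγ in NTC cells. With the replicate block and the GC content and length trend removed, 4 fell in treated DKO against NTC cells, and 0 rose and 1 fell with IFNγ in NTC cells.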
